A study of Mus musculus with 9 samples.

Results

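The 10 genes described here act in signalling by cyclic AMP (cAMP) and the transcription factor CREB in mouse bone marrow-derived macrophages. They were chosen by name, with earlier results of these data known. The deposited count table of 13593 genes held all 10: the CREB family transcription factors Creb1, Atf1 and Crem, the CREB coactivators Crtc2 and Crtc3, the salt-inducible kinases Sik1 and Sik3, and the cAMP phosphodiesterases Pde4b, Pde4d and Pde7a. All 10 also passed the filter on low counts, so none was lost to it. The macrophages were grown for 7 days in medium with 15% supernatant of L929 cells, from marrow of wild type C57BL/6 mice aged 6 weeks. They then received CCL26, CX3CL1 or bovine serum albumin (BSA), a protein control, each at 4 nM for 4 h, with 3 libraries in each group. The series title calls both chemokines ligands of the receptor CX3CR1. The labels do not state whether the 3 libraries of a group stem from different mice or dishes. The tests therefore weigh differences only against the variation among libraries, part or all of which may be technical.

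Cyclic AMP is made by adenylyl cyclases, which receptors coupled to the G protein Gs stimulate and receptors coupled to Gi inhibit, and it is degraded by phosphodiesterases. It activates protein kinase A (PKA), which phosphorylates CREB and related factors and thereby lets them recruit the coactivators CBP and p300 at cAMP response elements (CRE) of their target genes. CRTC coactivators are held in the cytoplasm while SIK kinases phosphorylate them, and PKA inhibits the SIKs. In macrophages cAMP is known for dampening inflammatory cytokine production, and Pde4b is known as a phosphodiesterase gene that bacterial lipopolysaccharide induces. Crem and Sik1 are themselves known CREB target genes.

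Total counts ran from 16923982 to 23198324 per library. The CX3CL1 library with the code B1, replicate 1 of its group, stood apart: it had no count for 1193 genes, while the remaining 8 libraries had none for 80 to 170. Its scaling factor was 0.849, against 0.999 to 1.05 in the others. It was the lowest of the 9 libraries for 9 of the 10 genes and the highest for Crem; over all 12915 genes tested it was the lowest in 43.2% and the highest in 36.2%. Fold changes of the 10 genes are therefore given with and without it where CX3CL1 is compared. The pathway lists are described without it, with the values of all 9 libraries added for comparisons with CX3CL1. Levels are in CPM, the usual depth-scaled count with TMM library sizes, and tests are edgeR quasi-likelihood tests with p adjusted over all genes tested (threshold 0.05). With all 9 libraries the B1 library also enters the comparison of CCL26 with BSA, through the spread per gene that the groups share. All 8 macrophage markers were in the table, among them Lyz2, the lysozyme gene, and Adgre1, the F4/80 gene. None of 6 T and NK cell markers was in it, nor was the granulocyte marker Ly6g.

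Pde4b, whose product degrades cAMP, was higher with CCL26 than with CX3CL1 in both fits, a call that several other settings ended while B1 was kept, and higher than with BSA once the B1 library was left out. No other of the 10 genes was higher by the test in either fit. Crem, which encodes activators and repressors of cAMP-responsive transcription, Sik1 and Sik3 were lower with CCL26 than with BSA once the B1 library was left out. Creb1, Atf1, Crtc2, Crtc3, Pde4d and Pde7a did not pass any test in the fit of all 9 libraries or in that of the other 8.

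**Figure D1:**
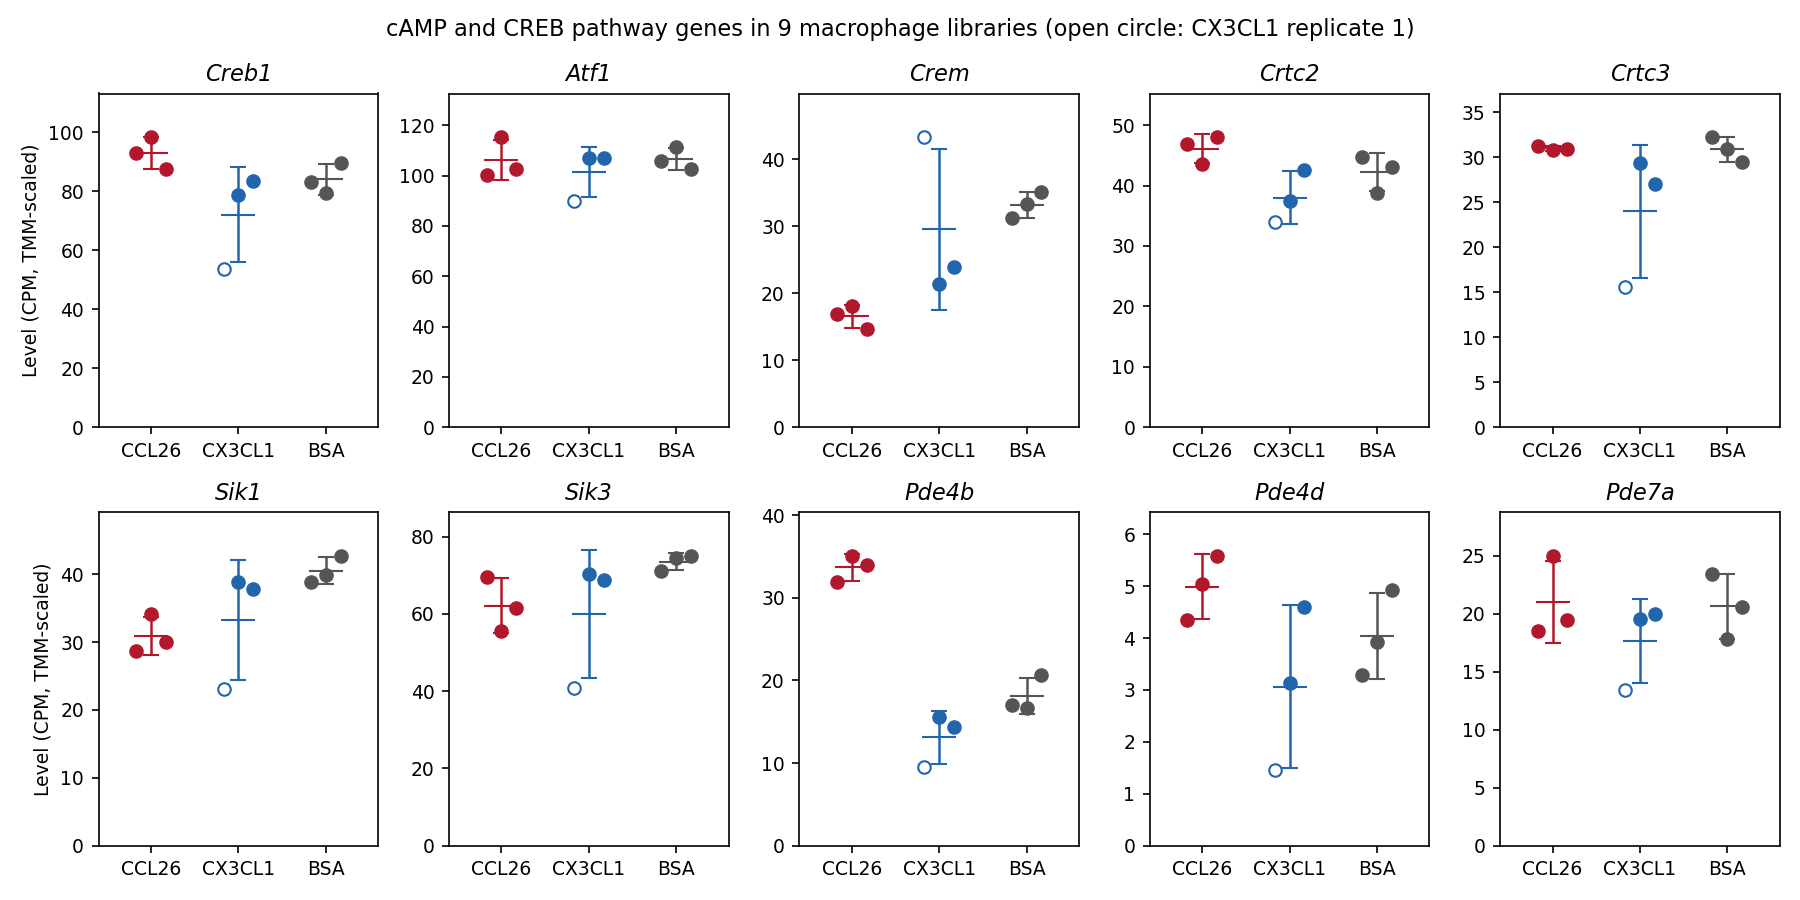
Level in CPM (vertical axis, from 0) of each of the 10 genes in the 3 CCL26, 3 CX3CL1 and 3 BSA libraries, with the mean (horizontal line) and SD (bar) over n = 3; the open circle is CX3CL1 replicate 1. The CCL26 libraries lie above all others for Pde4b, at 31.9 to 35.1 CPM, and below all others for Crem, at 14.7 to 18.0 CPM, while the open circle is the lowest point in every panel except that of Crem.

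Pde4b lies on chromosome 4 from 102087543 to 102607259 on the plus strand (GRCm38, GENCODE M21), and the RefSeq windows used here cover 4 of its start sites, whose transcripts a count per gene adds together. The window of 300 bases around the first of them is shown, since it is the only one of the 4 that holds the short CRE motif (TGACG, or CGTCA on the other strand). That of Sik3, which was lower with CCL26 than with BSA without B1, is shown beside it because it holds 3 of them. Capitals mark the short motif, and the sequences are those of RefSeq on GRCm38.p6, read on the plus strand from upstream of the start site into the transcript. They lie at chr4:102421305-102421604 and chr9:46012570-46012869.
Pde4b: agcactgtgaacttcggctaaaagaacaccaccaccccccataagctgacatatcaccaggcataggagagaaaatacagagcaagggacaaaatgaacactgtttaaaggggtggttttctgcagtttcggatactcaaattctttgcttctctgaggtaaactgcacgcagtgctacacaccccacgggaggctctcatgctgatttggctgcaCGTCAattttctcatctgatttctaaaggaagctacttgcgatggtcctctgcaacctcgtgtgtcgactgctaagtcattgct
Sik3: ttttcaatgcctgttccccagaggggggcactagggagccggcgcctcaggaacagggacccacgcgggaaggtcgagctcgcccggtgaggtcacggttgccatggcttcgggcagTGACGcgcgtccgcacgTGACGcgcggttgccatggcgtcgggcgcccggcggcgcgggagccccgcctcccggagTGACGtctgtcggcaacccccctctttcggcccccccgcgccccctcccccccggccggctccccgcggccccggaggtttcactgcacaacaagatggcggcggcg

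The short motif was searched on both strands in 32851 promoter windows of this length, and 20.81% of them hold it. The full element TGACGTCA, which reads the same on both strands and contains the short motif, is in 1.79% of them. Promoter windows matched 6 of the 10 genes, 9 windows in all, and none of the 9 holds the full element. No window was searched for Crem, Sik1, Crtc2 or Pde7a, so the search says nothing about the promoters of those genes. The short motif is also in the window of Atf1, once, and not in those of Creb1, Crtc3 and Pde4d or in the other 3 of Pde4b. The NF-kB consensus, known by that name, is in 4.51% of all windows and in 1 of the 9, at the second start site of Pde4b. Such matches describe the letters of these windows and do not show that a factor binds there.

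Pde4b, one of the PDE4 genes, had 31.9, 35.1 and 34.0 CPM in the CCL26 libraries. It had 9.47, 15.6 and 14.3 CPM in CX3CL1 replicates 1 to 3, where replicate 1 is the B1 library. The BSA libraries had 16.98, 16.7 and 20.7 CPM. The lowest CCL26 library was thus above the highest of the other 6, and all 3 CX3CL1 libraries were below all 3 BSA libraries. With CCL26 against CX3CL1 the log2 fold change was 1.36 (SE 0.198, edgeR adjusted p = 0.026), the only call among the 10 genes in the fit of all 9 libraries. It was 1.18 without the B1 library (SE 0.125, edgeR adjusted p = 2.09e-07).

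Against BSA, Pde4b with CCL26 had a log2 fold change of 0.89 that did not pass with all 9 libraries (SE 0.195, edgeR adjusted p = 0.161). The value was 0.90 and passed without the B1 library (SE 0.108, edgeR adjusted p = 8.42e-07). With CX3CL1 against BSA the value was -0.46 with all 9 libraries (SE 0.196, edgeR adjusted p = 0.711) and -0.28 without B1 (SE 0.127, edgeR adjusted p = 0.634), neither past the test. In the comparison of the 3 groups together Pde4b passed with all 9 libraries (edgeR adjusted p = 0.0468) and without B1 (4.63e-08).

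The call of Pde4b with CCL26 against CX3CL1 depended on which library was missing. While B1 was kept, leaving out any 1 of the other 8 libraries ended it, with log2 fold changes of 1.33 to 1.499. The edgeR adjusted p was then 0.0752, 0.0762 and 0.0635 without BSA replicates 1, 2 and 3, 0.0541 and 0.0815 without CX3CL1 replicates 2 and 3, and 0.131, 0.157 and 0.145 without CCL26 replicates 1, 2 and 3. A term for the replicate number also ended it (1.38, edgeR adjusted p = 0.0759), and so did a fit of the 6 CCL26 and CX3CL1 libraries alone (1.36, 0.203). Once B1 was left out, the call held in all 8 fits that left out 1 further library (1.12 to 1.24), and so did that of CCL26 against BSA (0.84 to 1.001).

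Crem lies on chromosome 18 from 3266048 to 3337748 and gives rise to both activators and, from an internal promoter, the short repressor ICER, which a count per gene does not separate. Of its exon bases, 472 are shared with Gm6225, a gene annotated on the opposite strand that has no row in the deposited count table. The sources used here do not say whether strand was used in counting, so reads of the pair may not be told apart. Crem had 16.9, 18.0 and 14.7 CPM in the CCL26 libraries. It had 43.3 CPM in the B1 library and 21.4 and 23.9 CPM in CX3CL1 replicates 2 and 3. The BSA libraries had 31.2, 33.2 and 35.05 CPM. Without B1 the 3 groups did not overlap, with CCL26 lowest, CX3CL1 between and BSA highest, while B1 alone was above every BSA library.

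With CCL26 against BSA the log2 fold change of Crem was -1.004 with all 9 libraries, which did not pass (SE 0.254, edgeR adjusted p = 0.262). It was -0.999 and passed without B1 (SE 0.107, edgeR adjusted p = 1.39e-07), also in all 8 fits that left out 1 further library (-1.06 to -0.92). With CX3CL1 against BSA the value was -0.17 with B1 (SE 0.251, edgeR adjusted p = 0.77) and -0.55 without it (SE 0.118, edgeR adjusted p = 0.0409). That call rested on few libraries: it held in 2 of the 8 fits that left out 1 further library, those without CCL26 replicate 2 (edgeR adjusted p = 0.0397) and CCL26 replicate 3 (0.00406). It was lost without BSA replicates 1, 2 and 3 (0.125, 0.226 and 0.186), CX3CL1 replicates 2 and 3 (0.532 and 0.319) and CCL26 replicate 1 (0.0507). With CCL26 against CX3CL1 the value was -0.84 with B1 (SE 0.254, edgeR adjusted p = 0.423) and -0.45 without it (SE 0.12, edgeR adjusted p = 0.0141), a call that was lost when CX3CL1 replicate 3 was left out as well (0.216).

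Sik1, a kinase that restrains CRTC coactivators, lies on chromosome 17 from 31844250 to 31855804. It had 28.7, 34.1 and 30.0 CPM with CCL26, 23.0 CPM in B1 and 38.8 and 37.8 CPM in CX3CL1 replicates 2 and 3. The BSA libraries had 38.9, 39.9 and 42.7 CPM, above all CCL26 libraries and all CX3CL1 libraries. With CCL26 against BSA the log2 fold change was -0.39 in both fits, not past the test with all 9 libraries (SE 0.198, edgeR adjusted p = 0.902) and past it without B1 (SE 0.0879, edgeR adjusted p = 0.00244). It stayed past the test in all 8 fits that left out 1 further library. For CX3CL1 against BSA the value was -0.28 with B1 (SE 0.198) and -0.08 without it (SE 0.0973), not past the test. With CCL26 against CX3CL1 Sik1 had -0.10 with B1 (SE 0.198, edgeR adjusted p = 0.781) and -0.31 without it (SE 0.0977, edgeR adjusted p = 0.0459). That call held in 1 of 8 fits with a further library left out, the one without CCL26 replicate 2 (0.0206). It was lost without BSA replicates 1, 2 and 3 (0.0562, 0.0636 and 0.0558), CX3CL1 replicates 2 and 3 (0.252 and 0.177) and CCL26 replicates 1 and 3 (0.16 and 0.063).

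Sik3, a broadly expressed kinase of the same family, lies on chromosome 9 from 46012820 to 46224194. It had 69.4, 55.4 and 61.5 CPM with CCL26, 40.9 CPM in B1 and 70.3 and 68.8 CPM in CX3CL1 replicates 2 and 3. The BSA libraries, at 71.1, 74.4 and 75.1 CPM, were above the other 6. With CCL26 against BSA the log2 fold change was -0.24 in both fits, with an edgeR adjusted p of 1 with all 9 libraries (SE 0.202) and of 0.0243 without B1 (SE 0.0741). The call was lost when BSA replicate 2 (0.0832), BSA replicate 3 (0.0844) or CCL26 replicate 2 (0.158) was left out as well, and held in the other 5 fits. For CX3CL1 against BSA it was -0.29 with B1 (SE 0.202) and -0.08 without it (SE 0.0826), not past the test. The value for CCL26 against CX3CL1 changed sign with the B1 library, at 0.05 with it (SE 0.202) and -0.16 without it (SE 0.0826, edgeR adjusted p = 0.27).

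The summed level of macrophage markers was lower with CCL26 than with BSA, as were Crem, Sik1 and Sik3. The 8 markers summed to 23833 to 24369 CPM with CCL26, 27705 to 28442 CPM over CX3CL1 replicates 2 and 3, 41967 CPM in B1 and 29508 to 30034 CPM with BSA. Lyz2 made up most of these sums, with means of 18342 CPM with CCL26 and 23489 CPM with BSA. Without B1, 6 of the 8 were lower with CCL26 than with BSA by the test, against 9.26% of all genes, Lyz2 among them at -0.35, and none was higher. The 7 granulocyte markers in the table summed to 77.4 to 82.8 CPM with CCL26, 68.8 to 76.5 CPM over CX3CL1 replicates 2 and 3, 179 CPM in B1 and 64.1 to 69.5 CPM with BSA. Of those 7, S100a8 (0.34) and S100a9 (0.35) rose by the test with CCL26 against BSA in the fit without B1, and none fell. Over all genes 9.74% rose in that fit. With all 9 libraries the granulocyte markers Elane (-0.58) and Mpo (-0.24), at means of 0.50 and 0.55 CPM, were below 0 and the rest above. The 2 B cell markers in the table, of 5, summed to 17.3 to 21.0 CPM with CCL26, 21.9 to 21.97 CPM over CX3CL1 replicates 2 and 3, 70.9 CPM in B1 and 23.2 to 25.5 CPM with BSA. Of these Cd79b was lower with CCL26 against BSA in the fit without B1 (-0.36, edgeR adjusted p = 0.0172). Kit, the only mast cell and basophil marker of 5 in the table, was higher there (1.26, 0.0115), and the megakaryocyte marker Pf4 was lower (-0.26, 0.00468). Mean levels of Kit were low, at 3.06 CPM with CCL26 and 1.28 CPM with BSA. With all 9 libraries none of the markers named here passed in this comparison. In such bulk RNA, fewer cells of a type and less RNA per cell cannot be told apart, and the part of these markers in the values of the 10 genes was not tested.

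**Figure D2:**
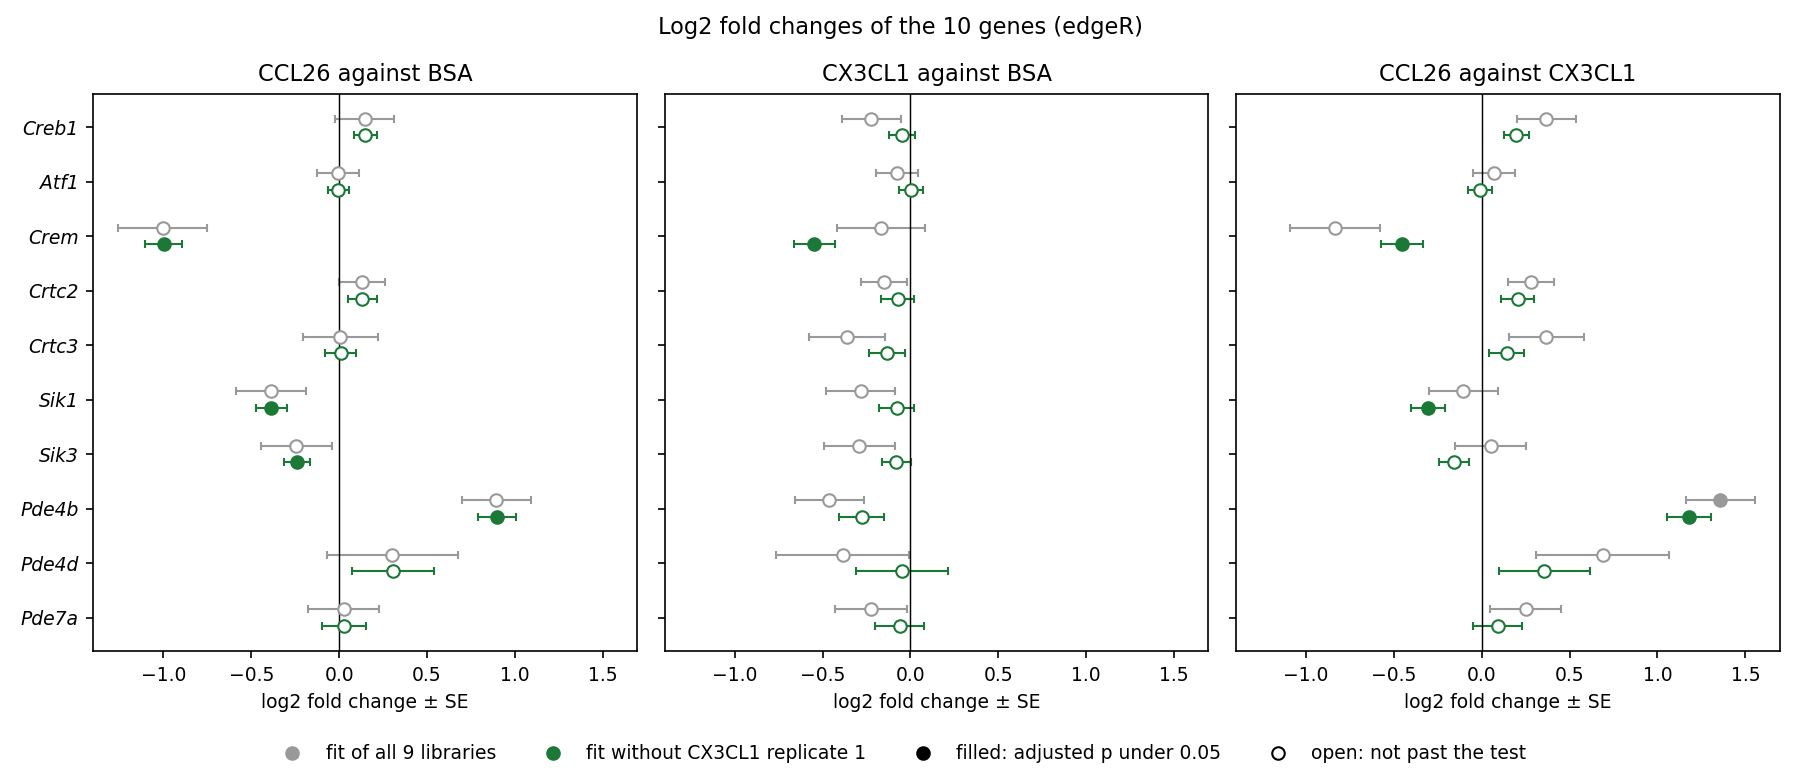
Log2 fold change with its SE (horizontal axis) of the 10 genes (vertical axis) in the 3 comparisons, in the fit of all 9 libraries (grey) and in the fit without CX3CL1 replicate 1 (green), where filled points passed the test at an adjusted p under 0.05. For CCL26 against BSA the grey and green points coincide and the grey bars are wider, as for Crem with SE 0.254 and 0.107. For CX3CL1 against BSA all 10 grey points lie below 0, and 9 of 10 green points. Over all genes 49.4% and 49.6% lie above 0 in these fits. CX3CL1 replicate 1 is the lowest of the 9 libraries for 9 of the 10 genes.

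Among the transcription factors, Creb1, the factor that gives the family its name, had 92.8, 98.3 and 87.6 CPM with CCL26. It had 53.6 CPM in B1, 78.7 and 83.6 CPM in CX3CL1 replicates 2 and 3, and 83.1, 79.3 and 89.6 CPM with BSA. The CCL26 libraries were above all CX3CL1 libraries and overlapped the BSA libraries. Without B1 the log2 fold change was 0.20 with CCL26 against CX3CL1 (SE 0.0721, edgeR adjusted p = 0.089) and 0.15 against BSA (SE 0.0643, edgeR adjusted p = 0.111), neither past the test. In the fit of all 9 libraries the values were 0.37 (SE 0.169, edgeR adjusted p = 0.423) and 0.15 (SE 0.169). For CX3CL1 against BSA, Creb1 had -0.22 with B1 (SE 0.169) and -0.05 without it (SE 0.0724). Creb1 passed in both comparisons when CCL26 replicate 3 was left out together with B1 (edgeR adjusted p = 0.0196 against CX3CL1 and 0.0295 against BSA).

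Atf1 encodes a close relative of CREB. It had 100.5 to 115 CPM with CCL26, 89.9 CPM in B1, 107 CPM in each of the other CX3CL1 libraries and 103 to 112 CPM with BSA. All 3 groups overlapped. Without B1 its log2 fold changes were -0.004 with CCL26 against BSA (SE 0.0602, edgeR adjusted p = 0.976), 0.004 with CX3CL1 against BSA (SE 0.0673) and -0.009 with CCL26 against CX3CL1 (SE 0.0671). Those of all 9 libraries were -0.007, -0.07 and 0.07 (SE 0.12 each).

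Neither CRTC coactivator gene passed the test in either fit. Crtc2 had 43.5 to 48.0 CPM with CCL26, 34.0, 37.4 and 42.6 CPM in CX3CL1 replicates 1 to 3 and 38.7 to 44.7 CPM with BSA. Its log2 fold change with CCL26 against CX3CL1 was 0.28 with all 9 libraries (SE 0.131, edgeR adjusted p = 0.423) and 0.20 without B1 (SE 0.0939, edgeR adjusted p = 0.196). Against BSA, CX3CL1 gave -0.15 with B1 (SE 0.131) and -0.07 without it (SE 0.0944). Crtc3 had 30.8 to 31.3 CPM with CCL26, 15.6, 29.4 and 27.0 CPM in CX3CL1 replicates 1 to 3 and 29.5 to 32.3 CPM with BSA. For both genes the CCL26 libraries were above the CX3CL1 libraries, and for Crtc3 the BSA libraries were too. The values of Crtc3 without B1 were 0.14 with CCL26 against CX3CL1 (edgeR adjusted p = 0.465) and -0.13 with CX3CL1 against BSA (0.819). Including B1 they were 0.37 (edgeR adjusted p = 0.446) and -0.36 (0.711).

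Neither of the other phosphodiesterase genes followed Pde4b past the test. Pde4d, a second PDE4 gene, was the lowest of the 10 with 22 to 109 counts per library. It had 4.35, 5.04 and 5.59 CPM with CCL26, 1.46, 3.13 and 4.61 CPM in CX3CL1 replicates 1 to 3 and 3.28, 3.93 and 4.93 CPM with BSA. Its log2 fold change with CCL26 against BSA was 0.31 without B1 (SE 0.231, edgeR adjusted p = 0.414), and the CCL26 and BSA libraries overlapped. Pde4d with CX3CL1 against BSA was at -0.38 with B1 (SE 0.379) and -0.05 without it (SE 0.262), and with CCL26 against CX3CL1 0.69 with B1 (SE 0.377) and 0.36 without it (SE 0.259). Pde7a, which encodes a further phosphodiesterase specific for cAMP, had 18.5 to 25.0 CPM with CCL26, 13.4 CPM in B1, 19.5 and 19.98 CPM in the other CX3CL1 libraries and 17.8 to 23.4 CPM with BSA. Its values without B1 were 0.03 with CCL26 against BSA (SE 0.126) and 0.09 with CCL26 against CX3CL1 (SE 0.141). With all 9 libraries the value against CX3CL1 was 0.25 (SE 0.204), and that of CX3CL1 against BSA was -0.22 (SE 0.204), against -0.06 without B1. Of its exon bases, 48 are shared with the antisense gene Gm16093, which has no row in the deposited count table.

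Counted over the set, 0 of the 10 genes passed with CCL26 against BSA in the edgeR fit of all 9 libraries, where 0.434% of 12915 genes did (0.387% higher and 0.0465% lower). At an unadjusted p under 0.05 there were 2, Crem and Pde4b, which ranked 166 and 107 by p among the 12915 genes. DESeq2 called 1 higher and 1 lower, and its total over all genes is given with the other settings at the end. Without B1, 4 of the 10 passed, 1 higher and 3 lower, against 19% of 13245 genes (9.74% higher and 9.26% lower). Groups did not overlap for 4 of the 10 in both fits, 1 higher and 3 lower. That compares with 33.1% of all genes with 9 libraries (16.6% higher and 16.5% lower) and 32.6% without B1 (16.6% and 16%), near the share of the 10. Of the 10 genes 6 had values above 0 without B1, against 51.4% of all genes. The median log2 fold change over the 10 was then 0.02, against 0.01 over all genes.

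With CX3CL1 against BSA 0 of the 10 passed in the edgeR fit of all 9 libraries, as did 0% of all genes. Under an unadjusted p of 0.05 there was 1, Pde4b, which ranked 310 by p among the 12915 genes, and DESeq2 called 0. Without B1 Crem passed, as the only one of the 10, against 0.332% of all genes (0.0227% higher and 0.31% lower). The groups did not overlap for 4 of the 10 genes with B1, all lower with CX3CL1, against 11.7% of all genes (4.77% higher and 6.93% lower). They did not overlap for 5 without it, all lower, against 25.8% (12.6% higher and 13.2% lower). For Sik1 and Crtc3 the gap was narrow. The highest CX3CL1 library had 38.84 CPM of Sik1 and the lowest BSA library 38.89 CPM, and for Crtc3 these were 29.41 and 29.50 CPM. The median over the 10 was -0.25 with B1 and -0.08 without it, beside medians of -0.01 and -0.001 over all genes. Both comparisons with BSA use the same BSA libraries, so they are not independent of each other.

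With CCL26 against CX3CL1 Pde4b passed with all 9 libraries, against 0.41% of all genes (0.395% higher and 0.0155% lower). Without B1, 3 of the 10 passed, 1 higher and 2 lower, against 10.1% (5.47% higher and 4.64% lower). Groups did not overlap for 5 of the 10 with B1, 4 higher and 1 lower, against 22.6% of all genes (12.9% and 9.76%). They did not overlap for 6 without it, 4 higher and 2 lower, against 36.8% (18.7% and 18.1%). The median over the 10 was 0.26 with B1 and 0.12 without it, beside 0.02 and 0.003 over all genes. When the 3 groups were compared together, 1 of the 10 passed with all 9 libraries and 3 without B1, Crem, Sik1 and Pde4b, against 0.441% and 16.3% of all genes.

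Levels of different genes were compared per kb of merged exon length. In the BSA libraries Atf1 was the highest at 34.9 ± 1.46 CPM per kb (SD, n = 3), followed by Crtc2 at 10.3 ± 0.764, Sik1 at 7.89 ± 0.391, Sik3 at 7.89 ± 0.228, Creb1 at 6.11 ± 0.379 and Crem at 5.63 ± 0.327 CPM per kb. Then came Crtc3 at 3.14 ± 0.141, Pde7a at 2.66 ± 0.361, Pde4b at 1.72 ± 0.209 and Pde4d at 0.337 ± 0.0689 CPM per kb. The ranges of the neighbours Sik1 and Sik3, Creb1 and Crem, and Crtc3 and Pde7a overlapped, and those of the other neighbours did not. With CCL26 Pde4b was at 3.19 ± 0.153 CPM per kb, sixth in the order and not separable from Crtc3 at 3.15 ± 0.0247, against the ninth place with BSA. Crem was at 2.80 ± 0.292 CPM per kb, in the eighth place and overlapping Pde7a at 2.71 ± 0.452. Exon length was taken over all annotated transcripts, so a gene whose macrophage transcripts are short appears lower on this scale than it is.

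**Figure D3:**
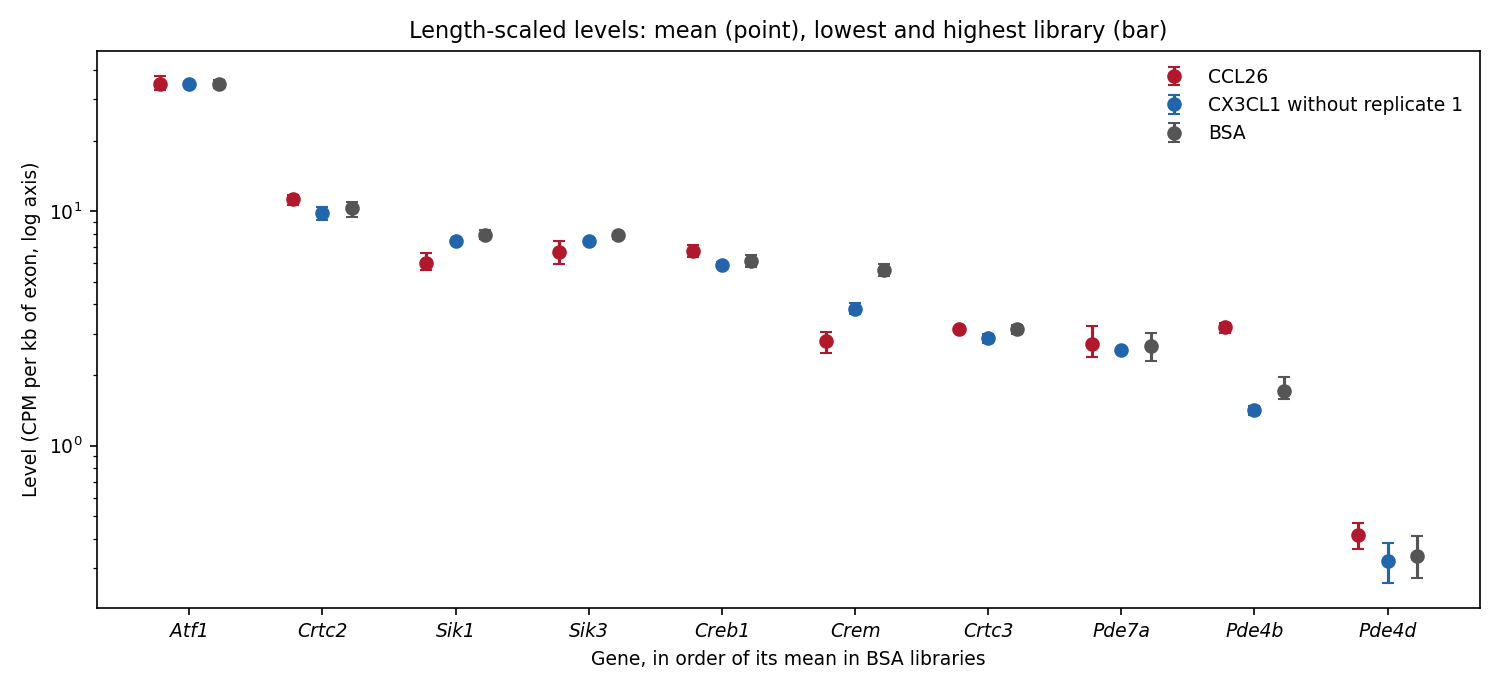
Level in CPM per kb of merged exon (vertical log axis) of the 10 genes, ordered by their BSA mean, in the CCL26 libraries (n = 3), the CX3CL1 libraries without replicate 1 (n = 2) and the BSA libraries (n = 3); points are means and bars run from the lowest to the highest library. Atf1 is at about the same level in the 3 groups, while Pde4b is at 3.19 CPM per kb with CCL26 and 1.72 with BSA, and Crem at 2.80 and 5.63.

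Over the 8 libraries without B1, the genes whose log2 CPM was most like that of Pde4b among 10711 others were Nfkbia (Pearson's r = 0.993), which encodes an inhibitor of NF-kB, the cytokine gene Tnf (0.986) and the kinesin gene Kif3c (0.981). These libraries share their 3 groups, so any gene that is high with CCL26 alone scores high. Nfkbia had 211 to 221 CPM with CCL26, 107 and 101 CPM in CX3CL1 replicates 2 and 3, 124 CPM in B1 and 113 to 128 CPM with BSA. Tnf had 71.6 to 82.0 CPM with CCL26, 34.7 and 35.7 CPM in CX3CL1 replicates 2 and 3, 41.6 CPM in B1 and 38.7 to 41.4 CPM with BSA. Kif3c had 69.4 to 77.6 CPM with CCL26, 47.9 and 49.3 CPM in CX3CL1 replicates 2 and 3, 7.95 CPM in B1 and 51.5 to 55.5 CPM with BSA. For all 3, CX3CL1 replicates 2 and 3 were below every BSA library, and B1 was not for Nfkbia and Tnf. Among all pairs of the 10 genes, the highest correlations were those of Crem with Sik1 (r = 0.894) and of Creb1 with Pde4b (0.843). The lowest was that of Sik1 with Pde4b (-0.789). Differences between the groups enter these values too.

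The rest of the pathway was read from 8 lists with 117 further genes, of which 84 were tested. In the edgeR fit of all 9 libraries none of the 84 passed in any of the 3 comparisons. At an unadjusted p under 0.05 there were 5 with CCL26 against BSA, 4 with CX3CL1 against BSA and 7 with CCL26 against CX3CL1. DESeq2, which tested 85, called 0, 0 and 1. Shares of all genes at the unadjusted cut-off are not given here, so these counts describe the lists only. Without B1 the counts were 8 higher and 13 lower with CCL26 against BSA, 0 and 2 with CX3CL1 against BSA, and 5 and 5 with CCL26 against CX3CL1. Over all genes these shares were 9.74% higher and 9.26% lower, 0.0227% and 0.31%, and 5.47% and 4.64%, so the 21 of 84 called with CCL26 against BSA stand beside 19% of all genes, and the 10 of 84 against CX3CL1 beside 10.1%. The values that follow are from that fit, CPM included, with n = 3 per group and n = 2 for CX3CL1.

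Of 14 receptors tested that act on cAMP, 3 rose and none fell with CCL26 against BSA (median 0.13), where 9.74% of all genes rose and 9.26% fell. The counts of the other lists in this comparison stand beside the same shares of all genes. Hcar2, a Gi-coupled receptor for hydroxybutyrate and niacin, had 30.6 ± 3.36 CPM with CCL26 and 18.2 ± 4.04 CPM with BSA, a log2 difference of 0.75 (SE 0.131, edgeR adjusted p = 0.000146). Ptger2, a Gs-coupled receptor for prostaglandin E, had 15.3 ± 3.57 CPM with CCL26 and 10.1 ± 1.39 CPM with BSA (0.59, SE 0.17, edgeR adjusted p = 0.0156). The third, named after its value was seen, was the prostacyclin receptor gene Ptgir (0.22, edgeR adjusted p = 0.046), which with CCL26 against CX3CL1 had 0.31 (0.0218). Hcar2 rose in that comparison too, with 30.6 ± 3.36 CPM against 18.0 ± 0.0989 CPM with CX3CL1 (0.76, edgeR adjusted p = 0.00094). Both were larger against CX3CL1 with all 9 libraries but did not pass, at 0.91 for Hcar2 (edgeR adjusted p = 0.211) and 0.55 for Ptgir (0.423).

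Of 5 G protein alpha subunits, Gnai2, the inhibitory subunit with 1016 CPM on average, fell with CCL26 against BSA (-0.18, SE 0.0356, edgeR adjusted p = 0.000545) and against CX3CL1 (-0.14, 0.0189). None of 4 adenylyl cyclases passed in any comparison without B1. Of 9 PKA subunits, PKA inhibitors and Epac genes, Prkar1a, a regulatory subunit of PKA, fell with CCL26 against BSA (-0.15, edgeR adjusted p = 0.012). Of 10 A-kinase anchoring proteins Akap13 (0.21, 0.00374) and Akap9 (0.24, 0.0495) rose, and Akap13 rose also against CX3CL1 (0.23, 0.00985). When B1 was kept, the values against CX3CL1 were -0.28 for Gnai2 and 0.67 for Akap13, neither past the test.

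Of 8 other phosphodiesterases, Pde1b, a calmodulin-dependent enzyme, rose with CCL26 against BSA, at 22.03 ± 0.861 CPM with CCL26 against 16.04 ± 3.35 CPM with BSA (0.46, SE 0.136, edgeR adjusted p = 0.0181). The other 7 did not pass, and the median of the 8 was 0.29. Of 15 CREB coactivators, CREB kinases and SIK regulators, Camkk2, which activates CaM kinases, rose (0.23, edgeR adjusted p = 0.0243). Ep300, which encodes the coactivator p300 (-0.13, 0.0322), the kinase gene Rps6ka1 (-0.16, 0.0332) and the calcineurin subunit gene Ppp3r1 (-0.18, 0.0363) fell, the last 2 named here after their values were seen. Both were also lower with CCL26 than with CX3CL1 (-0.22 and -0.21, and with all 9 libraries -0.29 and -0.25, not past the test).

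Of 19 tested genes known to be induced through CREB, 8 fell and 1 rose with CCL26 against BSA without B1, against 9.26% and 9.74% of all genes, with a median of -0.32. This list, like the others, was chosen with earlier results of these data known, so its count beside these shares describes the list only. Rgs2, a regulator of G protein signalling, had 47.4 ± 3.58 CPM with CCL26 and 68.9 ± 3.27 CPM with BSA, a log2 difference of -0.54 (SE 0.075, edgeR adjusted p = 8.72e-06). Thbs1, the thrombospondin gene, had 180 ± 6.75 CPM with CCL26 and 220 ± 6.6 CPM with BSA (-0.29, SE 0.0469, edgeR adjusted p = 6.46e-05). The gene that rose, named after its value was seen, was Cebpb, a transcription factor of macrophage activation (0.34, edgeR adjusted p = 7.22e-05). The others that fell, named after their values were seen, were Nr4a2 (-1.03), Ier2 (-0.63), Fos (-0.62), Irs2 (-0.50), Gem (-0.40) and Dusp1 (-0.32). Many of these genes are known to respond to other signals as well.

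With CX3CL1 against BSA, Junb (-0.33, edgeR adjusted p = 0.0133) and Thbs1 (-0.30, 0.0133) fell and none rose. Over all genes 0.31% fell and 0.0227% rose. The median of the 19 was -0.21, beside -0.001 over all genes. In the fit with B1 Junb had -0.15, Thbs1 -0.62 and the list a median of -0.35, with none past the test. With CCL26 against CX3CL1, Cebpb (0.36, edgeR adjusted p = 0.000299) and Junb (0.29, 0.00125) rose, while Rgs2 (-0.33, 0.0102) and Irs2 (-0.37, 0.0306) fell, the last 2 named after their values were seen. With all 9 libraries none of these passed: Cebpb changed sign to -0.17, Junb had 0.10, Rgs2 -0.57 and Irs2 -0.005. The list median was -0.06 without B1, beside 0.003 over all genes, and 0.03 with all 9 libraries. Over all genes 5.47% rose and 4.64% fell with CCL26 against CX3CL1 without B1. The CX3CL1 values without B1 rest on 2 libraries.

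**Figure D4:**
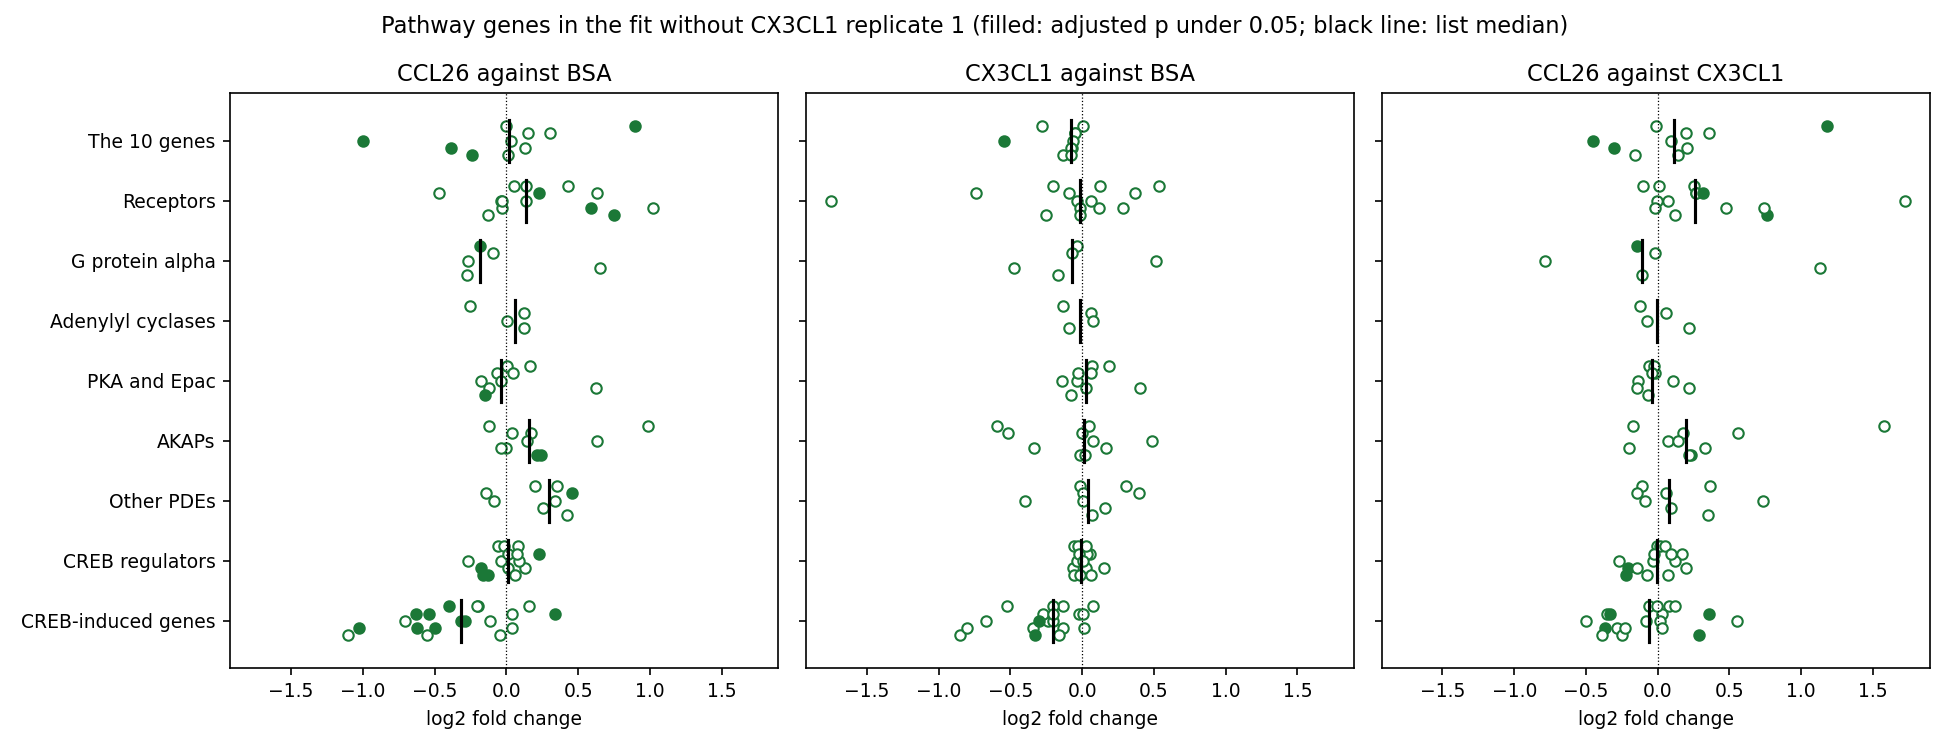
Log2 fold change (horizontal axis) of the 10 genes and of the tested genes of 8 further pathway lists (rows) in the 3 comparisons, in the fit without CX3CL1 replicate 1; each point is a gene, filled points passed the test and the black line is the list median. In the comparison of CCL26 with BSA 8 of 19 CREB-induced genes are filled to the left of 0 and 1 to the right, and in that of CX3CL1 with BSA the 2 filled genes of the lists are both to the left. The lists were chosen with earlier results of these data known.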

How the data were processed

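The authors deposited 1 table of raw counts per gene, with 3 libraries per group. STAR, featureCounts and MultiQC, with the builds GRCm38 and mm10, appear in the submitters' processing notes, without roles or versions. Column names carry the ending of STAR's gene count output, per the file headers. The code in a sample's title gave its column. Genes were filtered with filterByExpr, scaled by TMM and tested with edgeR 4.0.16 (R 4.3.3, glmQLFit, group as the only term, Benjamini-Hochberg adjustment over all genes tested), with all 9 libraries and without CX3CL1 replicate 1. An SE is the size of the log2 fold change over the square root of its F. Replicates differed by more than counting noise (chi-square per degree of freedom 3.91 to 8.65, and 284 and 336 in the pairs with CX3CL1 replicate 1). DESeq2 1.42.0 and limma 3.58.1 (voom with sample quality weights) were alternatives. The scripts were tested on simulated counts.

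The 10 genes and the lists were chosen with earlier results of these data known. Named pathway genes are those past the test with all 9 libraries, and per list and comparison the 2 with the smallest p among those past it without CX3CL1 replicate 1 at a mean of at least 1 CPM. Others are said to be named after their values were seen.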

Additional observations from a re-analysis of the deposited data

How the results depend on the processing

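With all 9 libraries, 0 of the 10 genes passed with CX3CL1 against BSA, 0 with CCL26 against BSA, 1 with CCL26 against CX3CL1 and 1 among the 3 groups together. RLE size factors and no filter on low counts gave the same counts. DESeq2 gave 2 with CCL26 against BSA (237 of all 13589 genes) and 2 for the 3 groups (275 of 12273). Limma-voom with sample quality weights, in which CX3CL1 replicate 1 had a weight of 0.0249, gave 1, 4, 3 and 3 (29, 2479, 1340 and 2243 of all 12915 genes). The 6 libraries compared alone gave 4 with CCL26 against BSA (2417 of 12495) and 0 with CCL26 against CX3CL1 (4 of 12466). Replicate numbers did not pair the libraries: the deviations of same-numbered libraries correlated at -0.107 to 0.0796 (0 of 9 pairs over 0.1), and 3 of 9 libraries correlated best with their own number. With the replicate block, 0 passed with CCL26 against CX3CL1 (11 of 12915) and 0 for the 3 groups (16 of 12915); with the replicate block and CX3CL1 replicate 1 left out as well, 4 passed with CCL26 against BSA, 2 with CCL26 against CX3CL1 and 3 for the 3 groups (2510, 1200 and 2115 of 13245), and Crem no longer passed with CX3CL1 against BSA (adjusted p = 0.0853).

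Leaving out single libraries, with or without CX3CL1 replicate 1 as a second one, gave 0 to 1 genes with CX3CL1 against BSA, 0 to 5 with CCL26 against BSA, 0 to 3 with CCL26 against CX3CL1 and 0 to 4 for the 3 groups. The counts above 1 all came from fits without CX3CL1 replicate 1.

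Some values that did not pass with all 9 libraries changed sign, and the cause was not tested. Limma-voom turned Atf1 to 0.000386 with CX3CL1 against BSA and to -0.00307 with CCL26 against CX3CL1. Crtc3 with CCL26 against BSA was -0.00398 with RLE size factors, -0.00372 with DESeq2 and -0.00165 with the 6 libraries alone. Sik3 with CCL26 against CX3CL1 was -0.16 with limma-voom and -0.19 with the replicate block and CX3CL1 replicate 1 left out as well. Over the fits that left out libraries, log2 fold changes with CX3CL1 against BSA ran from -0.63 to 0.0118 for Crem, -0.12 to 0.0388 for Atf1, -0.24 to 0.0158 for Crtc2, -0.81 to 0.19 for Pde4d and -0.32 to 0.0411 for Pde7a. With CCL26 against BSA they ran from -0.0699 to 0.0358 for Atf1, -0.0271 to 0.0415 for Crtc3 and -0.12 to 0.13 for Pde7a. With CCL26 against CX3CL1 they ran from -0.071 to 0.11 for Atf1, -0.38 to 0.0236 for Sik1, -0.25 to 0.18 for Sik3 and -0.0533 to 0.35 for Pde7a.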
